A study of Drosophila melanogaster with 4 samples.

Results

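Dopaminergic neurons of the adult *Drosophila* brain were taken here as nuclei that held at least 1 unique molecular identifier (UMI) of *ple* and at least 1 of *DAT*, at least 3 UMIs summed over *ple*, *DAT* and *Vmat*, and 0 UMIs of the glial gene *repo*. The rule found 759 nuclei among 69415 nuclei in all. There were 198 of 25332 nuclei in the female NaAsO2 library, 218 of 19188 in the female control library, 92 of 10000 in the male NaAsO2 library and 251 of 14895 in the male control library. All flies were of the w1118 Canton S (B) laboratory strain, abbreviated CSB, and were young adults when exposure began. NaAsO2-exposed females and males were kept on medium supplemented with 250 µM sodium arsenite, and control females and males on plain medium. Brains were dissected after 6 days, and 10 brains were pooled for each of the 4 libraries of single nucleus RNA sequencing. Each sex and treatment was therefore 1 sample, so NaAsO2 and control are compared within each sex without a test, and a fit over both sexes with sex as a block was not run.

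Dopamine is made from tyrosine by tyrosine hydroxylase, the product of *ple*, and dopa decarboxylase, the product of *Ddc*. The vesicular monoamine transporter Vmat loads it into synaptic vesicles, and the plasma membrane transporter DAT takes it back up after release. Vmat also serves serotonergic and octopaminergic neurons, whereas *ple* and *DAT* mark dopaminergic neurons. In the fly brain these neurons act in arousal, locomotion and reward and punishment learning, and loss of their mammalian counterparts underlies Parkinson's disease. On the release 6 genome, *ple* (Dmel_CG10118) lies at 3L:6713356-6719525, *DAT* (Dmel_CG8380) at 2R:16558567-16565238 and *Vmat* (Dmel_CG33528) at 2R:13513132-13534251.

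The libraries held 45357480, 53360256, 34292066 and 33235404 UMIs in the order female NaAsO2, female control, male NaAsO2 and male control. Median UMIs per nucleus ranged between 1374 and 2665.5. The male NaAsO2 library stood apart, since it listed 10000 nuclei and none with fewer than 1766 UMIs, while the other libraries reached down to 500 UMIs. *roX1*, a noncoding RNA of male dosage compensation, reached 115 and 93.9 UMIs per 1000000 (counts of that scale are given as CPM below) for female NaAsO2 and control and 22102 and 16386 CPM for male NaAsO2 and control, as labelled. Pairs of libraries shared 45 to 135 cell barcodes, but no barcode was shared between members of different libraries.

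The members varied widely in depth and in how much of their RNA came from the genes of the rule. Their median depth was 1658 UMIs in female NaAsO2, 2667 in female control, 3852.5 in male NaAsO2 and 1999 in male control brains. The deepest member held 10327, 36500, 111702 and 47647 UMIs in the same order. The median share of UMIs in *ple*, *DAT* and *Vmat* was 1.36% in female NaAsO2 and 0.999% in female control nuclei, and 0.435% in male NaAsO2 and 1.24% in male control nuclei. There were 38 members with more than 10000 UMIs, and they contributed 2.51% of all member UMIs in female NaAsO2, 29.3% in female control, 57.7% in male NaAsO2 and 36.4% in male control brains. Sums over the male NaAsO2 members thus rested mostly on 10 nuclei. Some results below are also given for nuclei with at most 10000 UMIs, or for members with at least 0.4% of their UMIs in the rule genes. Both settings were chosen after seeing the data.

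**Figure D1:**
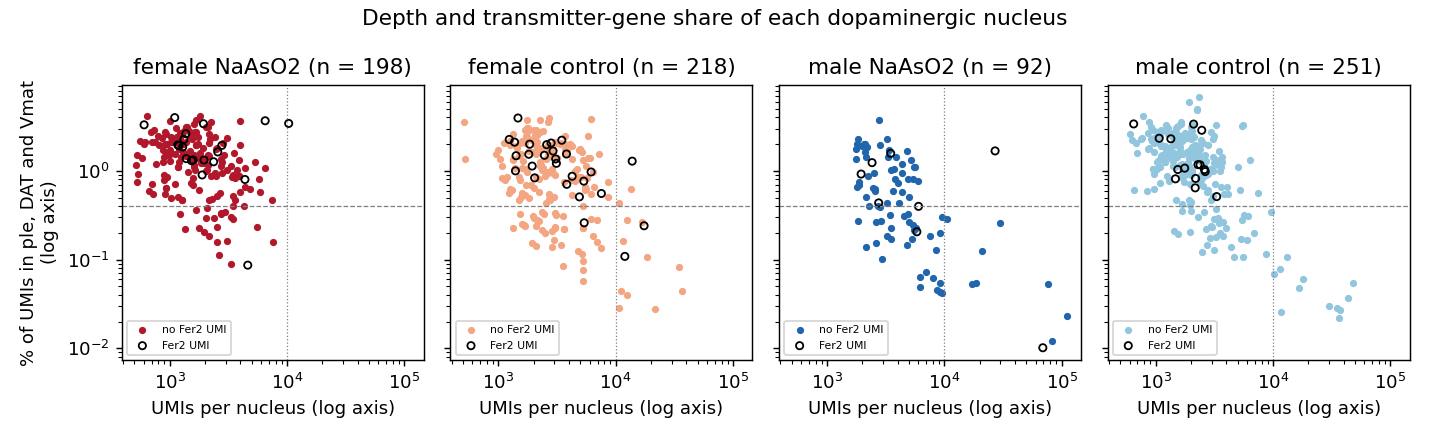
Each point is 1 dopaminergic nucleus, with its UMIs on the horizontal log axis and the percent of its UMIs in *ple*, *DAT* and *Vmat* on the vertical log axis, for female NaAsO2, female control, male NaAsO2 and male control libraries (left to right); open circles are nuclei with a *Fer2* UMI, the dashed line marks 0.4% and the dotted line 10000 UMIs. The deepest nuclei lie at the lowest shares in the female control and both male libraries, and most *Fer2* nuclei lie above 0.4%.

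At the edge of the rule, 16 members held exactly 3 UMIs of the rule genes, and 34 nuclei with *ple* and *DAT* but only 2 such UMIs fell just outside. Neither set held a *Fer2* UMI. Only 18 members lacked *Vmat* UMIs, although *Vmat* was not required. The members carried 45.7%, 48.2%, 48.9% and 60.1% of all *ple* UMIs of their libraries (female NaAsO2, female control, male NaAsO2, male control), so that part of the *ple* RNA lay in nuclei that the rule did not take. Among nuclei with a *repo* UMI, which should be glia, 19 of 940 in female NaAsO2, 24 of 1031 in female control, 13 of 565 in male NaAsO2 and 13 of 671 in male control brains met the rest of the rule, or 2.02%, 2.33%, 2.30% and 1.94%. These shares were above those of all 4 libraries as a whole, at median depths of 1784.5, 2496, 3447 and 1887 UMIs. Whether these nuclei with *repo* held background RNA or were doublets was not tested. The share of nuclei that meet the rule did not exceed theirs. It is given below as a count of nuclei with these UMIs, not of neurons that express the genes.

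Nuclei meeting the rule made up a smaller share of NaAsO2 than of control libraries in both sexes. The share was 0.782% (95% exact binomial interval 0.677 to 0.898) in female NaAsO2 and 1.14% (0.991 to 1.30) in female control brains. It was 0.92% (0.742 to 1.13) in male NaAsO2 and 1.69% (1.48 to 1.90) in male control brains. These intervals, like all those below, cover counting error only, and n was 1 library per group. Among nuclei with at least 1766 UMIs the shares were 1.06% in female NaAsO2 and 1.31% in female control brains, with overlapping intervals, and 0.92% in male NaAsO2 and 1.88% in male control brains. After thinning of each nucleus to 1000 UMIs they were 0.584% and 0.704% in female NaAsO2 and control brains, with overlapping intervals, and 0.32% and 1.13% in male NaAsO2 and control brains. The thinning left out 7013, 1718, 0 and 2417 shallower nuclei. Serotonergic and octopaminergic nuclei, defined by *Vmat* with *SerT*, *Trhn*, *Tdc2* or *Tbh*, made up 1.05% in female NaAsO2 and 1.94% in female control brains, and 3.19% in male NaAsO2 and 1.83% in male control brains, a different order in males. Their rule uses UMIs too, and these shares were not taken with a UMI minimum or after thinning. Since no male NaAsO2 nucleus had fewer than 1766 UMIs, the male order may depend on depth, which was not tested. Fewer neurons, less RNA of the rule genes per neuron and a different level of background cannot be told apart from these counts.

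**Figure D2:**
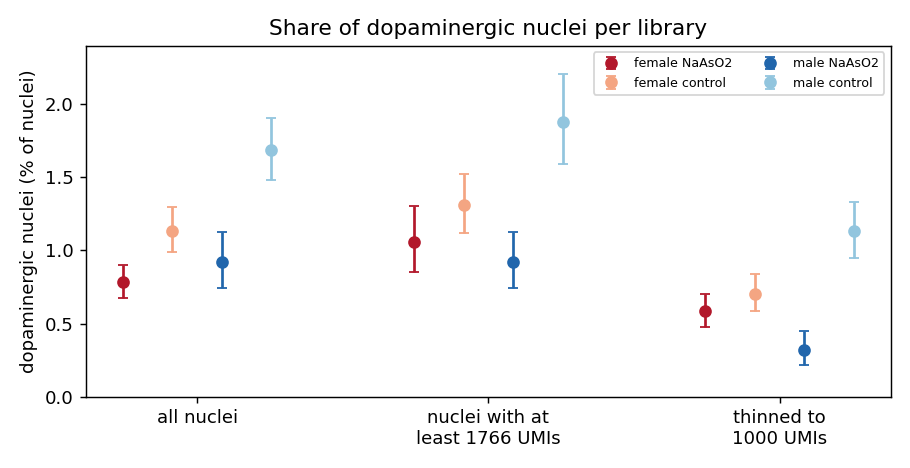
Dopaminergic nuclei as percent of the nuclei of each library (vertical axis) for all nuclei, for nuclei with at least 1766 UMIs and after thinning to 1000 UMIs; points are shares of 1 library and bars exact 95% binomial intervals for counting error. NaAsO2 lies below control in both sexes in all 3 settings, and the male intervals do not overlap.

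The label was checked against genes that the rule did not use, by summing UMIs per library and comparing dopaminergic nuclei with 56008 other neuronal nuclei (at least 3 UMIs over *elav*, *nSyb*, *Syt1* and *brp*, and no *ple*, *DAT* or *repo*). Nuclei of the serotonergic and octopaminergic class, defined above, were left out of these other neuronal nuclei. Of 9972 genes tested with edgeR's quasi-likelihood test, blocked by library (n = 4 libraries), 78 were higher (0.782% of genes tested) and 154 lower (1.54%) at an adjusted p under 0.05. The direction was the same in all 4 libraries for 68 and 138 of them. Where 4 values are given for a class, they stand in the order female NaAsO2, female control, male NaAsO2 and male control. Among the 78 were *CG13330*, *CG13331* and *CG13332*, which lie within the *Vmat* gene and are not independent of the rule. They also included 18 of 80 ribosomal protein genes. None of the 80 was called among members with at least 0.4% of UMIs in the rule genes, among nuclei with at most 10000 UMIs, or without either male library, and 56 were called without the female NaAsO2 library. At an unadjusted p under 0.05 edgeR gave 76 of the 80 in all members, 7 with the 0.4% minimum, 1 with at most 10000 UMIs, and 29 and 69 without the male NaAsO2 and the male control library.

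*Ddc* and 2 genes of the cofactor of tyrosine hydroxylase were higher in the members, as was the developmental factor *Fer2*. *Ddc* was at 1645 and 1216 CPM in female NaAsO2 and control members and at 1144 and 1409 CPM in male NaAsO2 and control members, against 759, 703, 1175 and 1064 CPM in other neuronal nuclei of the same libraries. It was thus higher in 3 of 4 libraries (log2 fold change 0.51 ± 0.13 SE, edgeR adjusted p = 0.029), the exception being male NaAsO2. *Dhpr*, the dihydropteridine reductase that recycles the cofactor of tyrosine hydroxylase, had 34.0, 17.3, 18.7 and 38.5 CPM in members, against 13.1, 10.6, 7.34 and 14.9 CPM (1.16 ± 0.22, edgeR adjusted p = 0.0027). *Pu*, the GTP cyclohydrolase that begins synthesis of that cofactor, had 38.9, 20.8, 14.9 and 16.3 CPM, against 12.5, 9.61, 10.1 and 9.79 CPM (0.96 ± 0.24, edgeR adjusted p = 0.032). These were the 3 of 8 tested genes of dopamine synthesis and packaging that were called, all higher, with a median log2 fold change of 0.53 over the list and −0.02 over all genes. The other 5 (*pr*, *Sptr*, *Hn*, *Catsup* and *prt*) held 23 to 42 UMIs each in all members. *Ddc* was not called without the female NaAsO2 library (0.33) or the male control library (0.55), *Dhpr* not without the male control library (1.05), and *Pu* was called only when the male NaAsO2 library was the one left out. Of 4 genes listed for dopamine breakdown, none was higher and 2 were lower, although 1 of these, *t*, acts in the reverse direction. *speck*, an amine N-acetyltransferase, had 34.0, 50.8, 42.3 and 71.2 CPM in members, against 84.5, 81.8, 76.4 and 91.98 CPM (−0.78 ± 0.15, edgeR adjusted p = 0.0025). *t*, which encodes the hydrolase that frees dopamine from its β-alanyl conjugate, had 1 UMI in all members and 622 in other neuronal nuclei.

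*Fer2*, a basic helix-loop-helix factor required for a large group of dopaminergic neurons that innervate the mushroom body, was at 58.3 and 39.3 CPM in female NaAsO2 and control members and at 14.9 and 22.2 CPM in male NaAsO2 and control members. Other neuronal nuclei had 4.24, 3.99, 2.88 and 3.34 CPM. The members were above the other neuronal nuclei in every library (3.04 ± 0.29, edgeR adjusted p = 2.1e-07), on 89 UMIs in 70 nuclei. The largest positive change among genes with at least 100 UMIs in members was in *JhI-21* (Dmel_CG12317, 2L:12051755-12056042), which encodes an amino acid transporter. It was at 163 and 78.5 CPM in female NaAsO2 and control members and at 22.4 and 63.0 CPM in male NaAsO2 and control members, against 7.79, 6.90, 6.32 and 8.38 CPM in other neuronal nuclei (3.23 ± 0.26, edgeR adjusted p = 1.3e-08). Its 207 UMIs were spread over 151 nuclei, with at most 9 in any nucleus. *Fer2* and *JhI-21* stayed called whichever library was left out.

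Members also differed in genes of amine reception. *Dop2R*, the D2-like receptor that acts as an autoreceptor on dopaminergic neurons, was at 3673, 3012, 1774 and 2991 CPM in members, against 1810, 1486, 1315 and 2119 CPM in other neuronal nuclei, higher in all 4 libraries (0.69 ± 0.10, edgeR adjusted p = 0.00018). *Dop1R2*, a D1-like receptor, was at 126, 164, 187 and 201 CPM in members, against 278, 254, 260 and 277 CPM, lower in all 4 (−0.70 ± 0.11, edgeR adjusted p = 0.00051). *DopEcR*, the dopamine and ecdysteroid receptor, was lower as well (−0.37 ± 0.09, edgeR adjusted p = 0.029). These were the only calls among 17 amine receptors tested in that comparison. The other D1-like receptor, *Dop1R1*, had a log2 fold change of 0.08 ± 0.12. *DopEcR* was not called without either female library (−0.31 and −0.34), while *Dop2R* and *Dop1R2* were called whichever library was left out.

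Of 23 transcription factors listed, 3 were higher (*Fer2*, *scro* and *Bx*) and 5 lower (*acj6*, *mamo*, *toy*, *fkh* and *salr*). The homeobox gene *scro* was at 1088, 780, 1187 and 980 CPM in members, against 695, 615, 750 and 528 CPM (0.58 ± 0.10, edgeR adjusted p = 0.00087). The POU factor *acj6*, which specifies olfactory and other cholinergic neurons, was at 165, 187, 108 and 138 CPM, against 291, 315, 317 and 232 CPM (−1.02 ± 0.13, edgeR adjusted p = 2.3e-05). Of these 8 factors, *Fer2*, *scro* and *acj6* were called whichever library was left out. Among the 10 genes with the largest positive fold change were further regulators, namely the forkhead gene *fd102C* (1.80 ± 0.22), the zinc finger gene *erm* (0.91 ± 0.14) and the homeobox gene *dve* (0.88 ± 0.12). Signalling genes in this set were the glycoprotein hormone receptor gene *Lgr1* (1.35 ± 0.24), the receptor gene of diuretic hormone 44, *Dh44-R1* (0.80 ± 0.14), the adenylyl cyclase gene *Ac78C* (0.87 ± 0.15) and the cadherin gene *Cad87A* (0.75 ± 0.16). The uncharacterised genes *CG15082* (1.75 ± 0.24) and *CG7191* (1.39 ± 0.18) completed it. In each library 1 nucleus held much of the *CG15082* UMIs of the members, at 46%, 41.4%, 88.7% and 58.1%. *Cad87A* was not called without the female NaAsO2 library, when its value was 0.50.

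A further list took the genes that mark the published cluster with *ple*, *DAT* and *Vmat*. That list was chosen on these samples and is not independent evidence. Of its 16 genes, 11 were higher and none lower, with a median log2 fold change of 0.51. Besides *Ddc*, *scro*, *Bx* and *Cad87A*, it held *CARPA* (0.69 ± 0.13), *kek1*, a leucine-rich repeat membrane protein gene (0.60 ± 0.10), and *Ca-Ma2d* (0.71 ± 0.12).

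Genes of other transmitters gave mixed results. *Gad1*, the enzyme of GABA synthesis, was at 141, 239, 164 and 209 CPM in members, against 412, 388, 361 and 328 CPM in other neuronal nuclei, and the ranges did not overlap (−1.02 ± 0.13, edgeR adjusted p = 1.2e-05). *ChT*, the choline transporter, was lower too (−0.60 ± 0.12, edgeR adjusted p = 0.0042). *ChAT* (−0.12 ± 0.11), *VAChT* (−0.22 ± 0.10), *VGlut* (−0.17 ± 0.11) and *VGAT* (−0.34 ± 0.12) did not pass the test. *ChAT* and *VAChT* share their first exon, and their reads may not be fully separable. Nuclei with *Vmat* and at least 2 UMIs over *SerT*, *Trhn*, *Tdc2* and *Tbh* were removed from the other neuronal nuclei but not from the members. This raises the values of these genes in members against other neuronal nuclei, so their calls are not independent of how the comparator was chosen. *SerT*, the serotonin transporter, had 31.6, 38.1, 3.73 and 24.5 CPM, against 2.88, 2.76, 2.57 and 2.20 CPM (3.06 ± 0.41, edgeR adjusted p = 3.9e-05), on 70 UMIs in 21 nuclei, and was called whichever library was left out. *Tdc2*, the neuronal tyrosine decarboxylase, had 39 UMIs in 22 nuclei (1.39 ± 0.33, edgeR adjusted p = 0.022), and was called neither without female NaAsO2 nor without male NaAsO2. *Trhn*, which makes serotonin, had 10 UMIs in 8 nuclei and a value of 0.08 ± 0.57. *Tbh* was not called, but it was detected far more widely, in 186 of 759 members (24.5%). The share with a *Tbh* UMI was 17.7%, 27.1%, 44.6% and 20.3% in the 4 libraries.

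Neuropeptide genes were mostly lower, at 17 of 25 tested, and only *Dh44* was higher (0.74 ± 0.13, edgeR adjusted p = 0.0015). The median was −1.29, against −0.02 over all genes. The genes with the largest negative fold change included the peptide genes *Capa* (−3.59 ± 0.28), *Ilp3* (−2.90 ± 0.50) and *Orcokinin* (−2.69 ± 0.19). *Orcokinin* was at 14.6, 57.8, 19.9 and 24.5 CPM in members, against 148, 297, 57.0 and 264 CPM in other neuronal nuclei, lower in each library. The clock neuron peptide *Pdf* was at 31.6, 72.8, 18.7 and 61.8 CPM, against 114, 317, 43.0 and 475 CPM (−2.30 ± 0.17, edgeR adjusted p = 4.6e-09). *NPF*, *Mip*, *Dh31* and *Dsk* were also called lower, although *NPF* was not without the male control library. Of the 17, *AstC* and *CCHa2* were called in 1 of the 4 fits that left out a library and *Nplp1* and *Trissin* in 2. *CCHa1*, *Lk*, *spab* and *NPF* were called in 3, and the others of the 17 in all 4. *sNPF* had 0.06 ± 0.10. The same end of the ranking held genes of photoreceptors, namely the rhodopsin *Rh2* (−2.85 ± 0.24), the channel *trpl* (−3.34 ± 0.44) and *ninaA*, a rhodopsin chaperone with 0 UMIs in members and 401 in other neuronal nuclei. Of 8 photoreceptor markers, 6 were lower and none higher. The remaining genes named there were *inv*, *CG8401*, *lncRNA:CR31781* and *t*, with 1 to 12 UMIs each in all members, of which *inv*, *CG8401* and *t* were not called without the male control library. *inv* and *t* were called in 2 of the 4 fits that left out a library, *CG8401* in 3 and *ninaA* in 1. *inv* and *ninaA* were called neither among members with at least 0.4% of UMIs in the rule genes (edgeR adjusted p = 0.064 and 0.073) nor among nuclei with at most 10000 UMIs (edgeR adjusted p = 0.056 and 0.12).

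**Figure D3:**
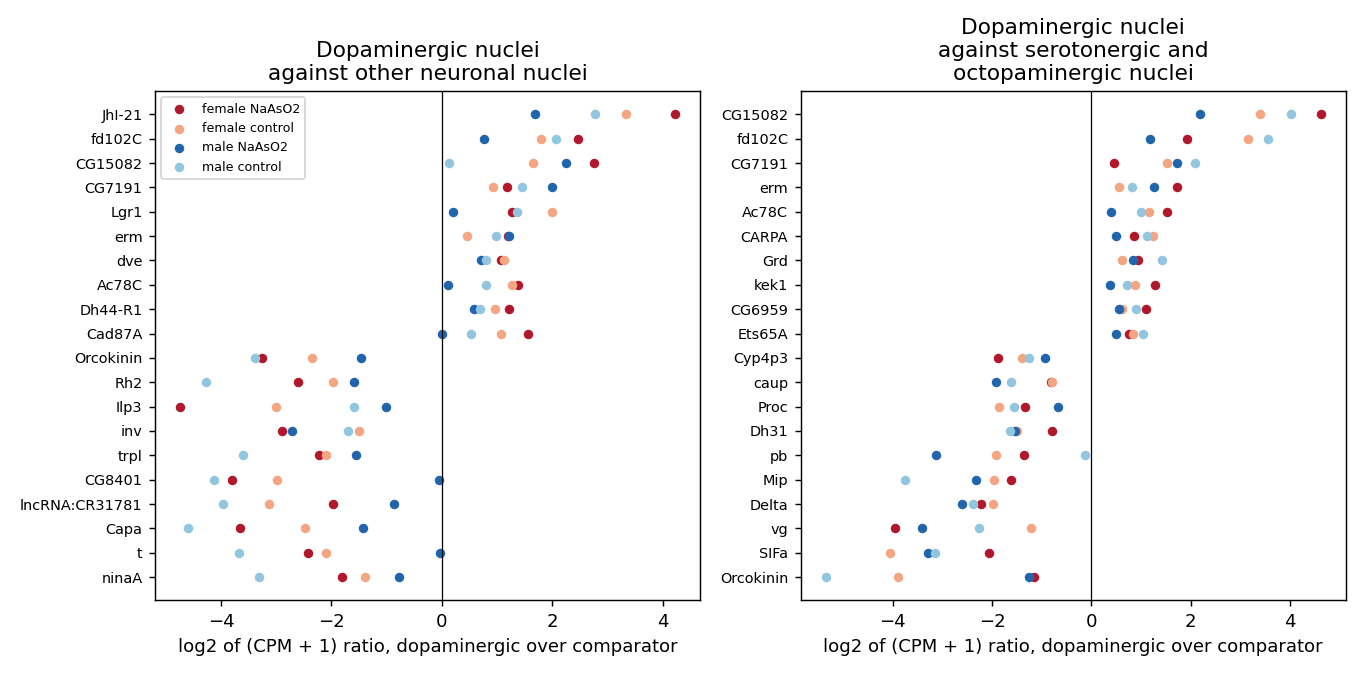
Log2 ratio of (CPM + 1) in dopaminergic nuclei over other neuronal nuclei (left) and over serotonergic and octopaminergic nuclei (right) for the 10 genes with the largest positive and the 10 with the largest negative fold change; each point is 1 of the 4 libraries. All 4 points lie on 1 side of 0 for each gene, as the choice of genes required.

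Membrane and release genes differed little. Of 22 receptors of fast transmitters, the ligand-gated channel subunit *Grd* was higher (0.61 ± 0.14) and *nAChRalpha7* and *mGluR* were lower. Of 18 peptide receptors, 1 was higher (*Dh44-R1*). Of 25 excitability genes, *para*, *eag* and *NaCP60E* were lower (−0.34 to −0.41) and none was higher. *eag* was called in none of the 4 fits that left out a library, and *para* and *NaCP60E* were called in 2 each. Of 11 genes of synaptic release none was called. No gene was called among 3 metallothioneins, 12 heat shock genes, 22 genes of oxidative stress, 16 orthologs of Parkinson's disease genes, 8 activity-regulated genes and 8 Kenyon cell markers by edgeR. At an unadjusted p under 0.05 there were 0, 0, 2, 3, 1 and 2 genes in these lists and 1 (*Sytalpha*) in synaptic release, and DESeq2 called the 2 Kenyon cell markers (*rut* and *mub*) and no other. Of 7 glial markers 1 was lower (*alrm*), and of 6 plasmatocyte markers 1 was lower (*Hml*). Of 9 fat body markers, the yolk protein genes *Yp1* and *Yp3* were higher and *TotC* was lower. *Yp1* had 241 UMIs in all members, of which 169 were in 1 female control nucleus, and it was higher in 2 of 4 libraries, as was *Yp3*. Neither was called without the female control library or among nuclei with at most 10000 UMIs (−0.45 and −0.71). *alrm* and *Hml* were not called without the male control library.

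The members were not uniform. They were set in bands by the share of their UMIs in *ple*, *DAT* and *Vmat*, with 166 nuclei under 0.4%, 347 at 0.4 to 1.6% and 246 at 1.6% or more. The bands were chosen after seeing the data and use the genes of the rule, so their values are a description with no test. *Ddc* was at 706, 1792 and 2237 CPM from the lowest to the highest band, *Dop2R* at 1486, 3320 and 5517 CPM and *Fer2* at 5.32, 49.5 and 69.2 CPM. In the lowest band *Ddc* was at 1205, 681, 739 and 604 CPM in the 4 libraries, above other neuronal nuclei (759 CPM) in female NaAsO2 and below them (703, 1175 and 1064 CPM) in the others, and *Fer2* rested on 8 UMIs. *JhI-21* followed the same order, at 13.3, 89.3 and 206 CPM, as did *Cad87A* at 136, 607 and 1041 CPM and the immunoglobulin superfamily gene *DIP-delta* at 164, 604 and 811 CPM. The opposite order held for the cholinergic genes *VAChT*, at 561, 348 and 138 CPM, and *ChAT*, at 260, 143 and 87.0 CPM, and for the glial glutamate transporter *Eaat1*, at 533, 244 and 109 CPM. *VGlut* was at 515, 395 and 267 CPM. *Obp44a*, an odorant binding protein gene chosen after its values were seen, was at 2615, 924 and 758 CPM. *scro*, at 1054, 901 and 977 CPM, and *Pu*, at 10.6, 35.5 and 21.8 CPM, followed neither order. The lowest band held 23 of 198 members in female NaAsO2, 54 of 218 in female control, 43 of 92 in male NaAsO2 and 46 of 251 in male control brains, and it carried 16.5%, 42.4%, 77.4% and 52.0% of the members' UMIs.

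**Figure D4:**
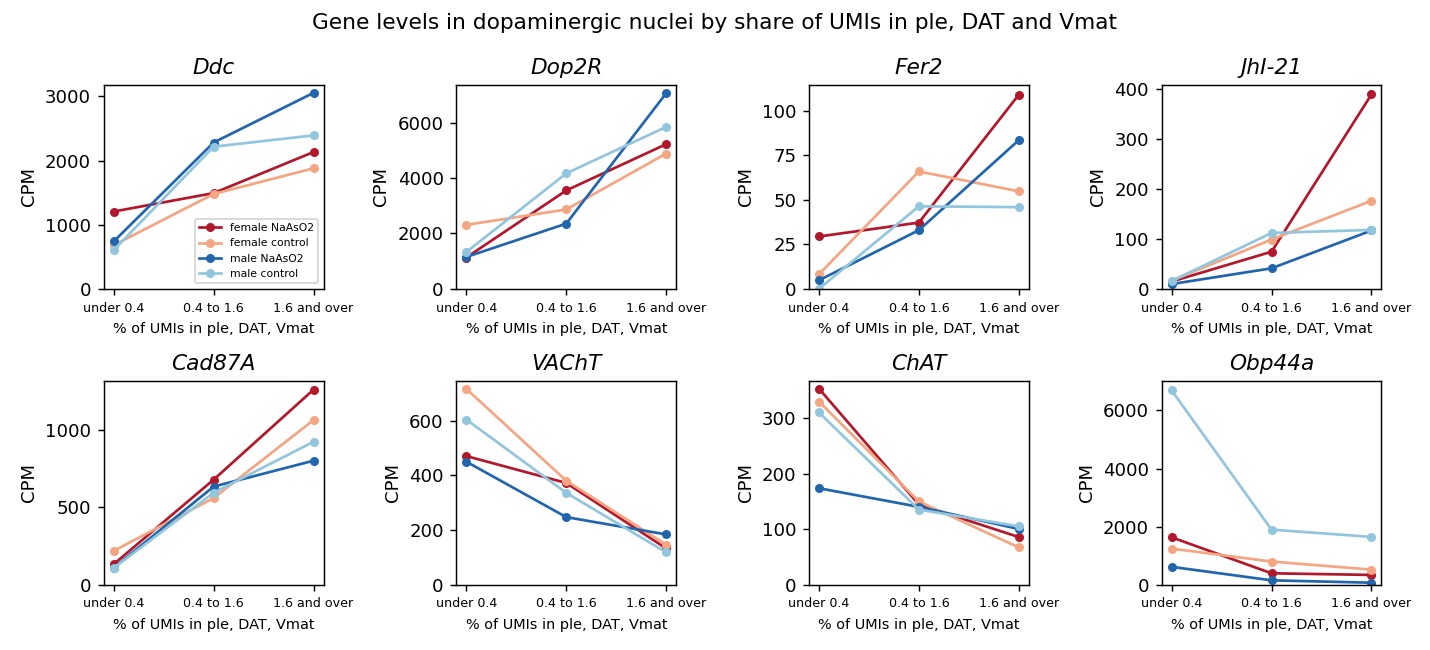
CPM (vertical axis) of 8 genes in dopaminergic nuclei of each library, by the share of their UMIs in *ple*, *DAT* and *Vmat*; lines join the bands of 1 library. *Ddc*, *Dop2R*, *Fer2*, *JhI-21* and *Cad87A* are higher in the top band than in the lowest in each library, and *VAChT*, *ChAT* and *Obp44a* are lower.

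Among members with at least 0.4% of UMIs in these genes, 241 genes were higher and 413 lower than in other neuronal nuclei by the same edgeR test, and 50 of the 78 and 128 of the 154 genes were among them. This setting selects members on the genes of the rule and after seeing the data, so these counts only show how the calls move with it. For nuclei with at most 10000 UMIs the counts were 153 and 271, with 47 and 126 in common.

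Several of the higher genes lay in few members, and different genes lay in different members. *Ddc* was seen in 663 of 759 nuclei and *Dop2R* in 686, but *JhI-21* in 151, *fd102C* in 90, *Fer2* in 70, *CG7191* in 38, *CG15082* in 27 and *SerT* in 21. *Fer2* nuclei held *JhI-21* in 29 of 70 cases (41.4%), compared with 19.9% of all members. *CG7191* nuclei held *Dh44* in 20 of 38 cases (52.6%, compared with 16.2% of members), *dve* in 15 and *fd102C* in 13, and each pair was found in all 4 libraries. *CG15082* nuclei held the transcription factor gene *dac* in 19 of 27 cases (70.4%, compared with 19.5%) and *SerT* in 8. *Fer2* shared 5 nuclei with *CG7191* and 1 with *SerT*, and *SerT* shared none with *CG7191*. These overlaps are a description, since deeper nuclei hold UMIs of more genes. A UMI of *VAChT* was found in 364 members, of *VGlut* in 325, of *ChAT* in 226 and of *Gad1* in 209, at levels that fell with the bands for *VAChT*, *VGlut* and *ChAT*.

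The nearest other neurons were compared in the same way. There were 1230 serotonergic and octopaminergic nuclei, with 265, 373, 319 and 273 in female NaAsO2, female control, male NaAsO2 and male control libraries. Of 5775 genes tested, 21 were higher in dopaminergic nuclei (0.364%) and 47 lower (0.814%) by edgeR's quasi-likelihood test at an adjusted p under 0.05. All 21 were higher in each of the 4 libraries, and all 21 were also called among members with at least 0.4% of UMIs in the rule genes and among nuclei with at most 10000 UMIs. Of the 47 lower genes, 45 were lower in each library, 27 were also called with the 0.4% minimum and 40 with at most 10000 UMIs. The counts were 3 and 6 without the male control library, and 24 genes were lower without the male NaAsO2 library. *Fer2*, *Dop2R*, *CG15082*, *SIFa*, *Mip*, *Dh31* and *Delta* were called whichever library was left out.

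Against these aminergic nuclei, *Dop2R* was at 3673, 3012, 1774 and 2991 CPM in dopaminergic nuclei and at 2197, 1821, 1094 and 2068 CPM in serotonergic and octopaminergic nuclei (0.66 ± 0.06, edgeR adjusted p = 0.00036). *Fer2* was higher by 2.04 ± 0.28 (edgeR adjusted p = 0.0035). *CG15082* (3.4 ± 0.34), *fd102C* (2.33 ± 0.34), *CG7191* (1.46 ± 0.24), *erm* (1.05 ± 0.19) and *Ac78C* (1.02 ± 0.16) were higher in this comparison as well. *CARPA* (0.94 ± 0.13), *Grd* (0.93 ± 0.17), *kek1* (0.79 ± 0.12), *CG6959* (0.77 ± 0.12) and the ETS factor *Ets65A* (0.77 ± 0.12) completed the 10 largest. *fd102C* was at 87.5 and 46.2 CPM in female NaAsO2 and control members and at 33.6 and 56.0 CPM in male NaAsO2 and control members, against 22.2, 4.32, 14.2 and 3.84 CPM, and the ranges did not overlap. *Ddc*, which serotonergic neurons also use, had 0.28 ± 0.12 and did not pass the test, and none of 7 genes of dopamine synthesis and packaging did, in edgeR or DESeq2, although *Ddc* and *Dhpr* had an unadjusted p under 0.05. *CG15082*, *CG7191* and *erm* were not called without predicted doublets. As given above, 1 nucleus held most of the *CG15082* UMIs in each male library.

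Genes lower than in serotonergic and octopaminergic nuclei were again led by neuropeptides, with 6 of 24 lower and none higher. The log2 fold change was −3.93 ± 0.44 for *Orcokinin*, −3.26 ± 0.26 for *SIFa*, −2.38 ± 0.26 for *Mip*, −1.41 ± 0.14 for *Dh31* and −1.41 ± 0.19 for *Proc*. *Orcokinin* was at 14.6, 57.8, 19.9 and 24.5 CPM in dopaminergic nuclei, against 33.8, 871, 49.0 and 1039 CPM. Its difference was thus far larger in the control than in the NaAsO2 libraries, and it was called in 3 of the 4 fits that left out a library. *SIFa*, a peptide of a few median neurosecretory cells, was at 19.4, 4.62, 3.73 and 18.7 CPM in dopaminergic nuclei, against 84.5, 91.9, 45.1 and 173 CPM, with no overlap. *Dh31*, the diuretic hormone 31 gene, was at 129, 118, 83.3 and 86.3 CPM, against 223, 334, 242 and 269 CPM. The developmental genes *vg* (−2.42 ± 0.35), *Delta* (−2.40 ± 0.23), *pb* (−1.86 ± 0.39) and *caup* (−1.35 ± 0.27) and the cytochrome P450 gene *Cyp4p3* (−1.31 ± 0.23) were the others of the 10. *pb*, *caup* and *Cyp4p3* were not called with the 0.4% minimum (edgeR adjusted p = 0.14, 0.14 and 0.11). *Delta*, the Notch ligand, was at 12.1, 10.4, 7.46 and 9.33 CPM in dopaminergic nuclei, against 60.2, 43.8, 50.3 and 52.5 CPM. *5-HT2B*, a serotonin receptor, was lower (−0.81 ± 0.13, edgeR adjusted p = 0.007), as were *Dop1R2* (−0.57 ± 0.12), *speck* (−0.84 ± 0.16) and *acj6* (−0.76 ± 0.12). *5-HT2B* was not called with the 0.4% minimum (−0.43), nor was the potassium channel gene *Elk* (−0.11). The counts in the other lists were 4 higher and 1 lower of 22 transcription factors, 4 higher of 16 genes of the study's cluster list, 1 higher and 2 lower of 16 amine receptors, 1 higher of 22 fast transmitter receptors (*Grd*), 1 lower of 23 excitability genes (*Elk*) and 1 higher of 8 Kenyon cell markers (*mub*). No gene was called in the lists of peptide receptors, synaptic release, stress genes or markers of glia, fat body, photoreceptors and plasmatocytes by edgeR or DESeq2. At an unadjusted p under 0.05 edgeR gave 7 of 17 peptide receptors, 5 of 6 photoreceptor markers and at most 1 in each of the others.

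Exposure to NaAsO2 was compared with control within each sex as the log2 ratio of CPM in dopaminergic nuclei, for genes with at least 50 UMIs over both libraries. A gene was counted when the ratio was at least 2-fold and its exact 95% interval, for counting error only, left out 0. With 1 library per group these are differences between libraries. In females, 17 of 2915 genes were higher (0.583%) and 65 lower (2.23%) in NaAsO2. In males, 25 of 3282 genes were higher (0.762%) and 96 lower (2.93%). The median log2 ratio was −0.01 in females and −0.05 in males. Without scaling to the total, as mean UMIs per nucleus, every ratio moved by −0.93 in females and 1.35 in males, so all ratios here are relative to the total RNA of the members. Other neuronal nuclei of the same libraries moved in the same direction, with intervals that left out 0, for 10 of the 17 and 22 of the 65 genes in females and for 19 of the 25 and 93 of the 96 genes in males. Their sums hold far more UMIs, so these intervals are narrow, and the same share over all counted genes was not taken. At least 2-fold in that direction were 3 of the 17 and 7 of the 65 genes in females. In males these were 6 of the 25 and 43 of the 96. Among nuclei with at most 10000 UMIs, 11 of the 17 and 25 of the 65 genes in females, and 12 of the 25 and 62 of the 96 in males, were still beyond 2-fold. For these counts the minimum of 50 UMIs was applied to all members and not again to the nuclei kept.

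The genes of the rule, which chose the members, are given as a description. *ple* was at 1428 CPM in female NaAsO2 and 825 CPM in female control members, and at 348 CPM in male NaAsO2 and 1191 CPM in male control members. *DAT* was at 2364 and 1681 CPM in female NaAsO2 and control members and at 626 and 1668 CPM in male NaAsO2 and control members, and *Vmat* at 9865 and 6051 CPM and at 2469 and 5415 CPM in the same order. All 3 were higher in NaAsO2 in females and lower in males over all members. The deep nuclei described above held a smaller share of member UMIs in female NaAsO2 than in female control and a larger one in male NaAsO2 than in male control brains, and their part was tested only by leaving them out. Among nuclei with at most 10000 UMIs, the log2 ratios were 0.38 in females and −1.54 in males for *ple*, 0.24 and −0.96 for *Vmat*, and 0.10 (−0.02 to 0.22) and −1.15 for *DAT*, so that the female interval of *DAT* included 0.

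Of the genes of dopamine synthesis and breakdown that the rule did not use, *Ddc* and *speck* alone had the 50 UMIs needed to be counted, and both were within 2-fold. Among those below that minimum, *Dhpr* had a log2 ratio of −1.04 (−2.03 to −0.12) in males, on 15 UMIs in NaAsO2 and 33 in control members. For *Ddc* the log2 ratio was 0.44 in females (95% interval 0.29 to 0.58) and −0.30 in males (−0.43 to −0.18), and 0.11 and 0.14 in other neuronal nuclei. For members with at least 0.4% of UMIs in the rule genes *Ddc* had 0.10 in females and 0.15 in males. *Dop2R* had 0.29 (0.19 to 0.38) in females, as in other neuronal nuclei (0.29), and −0.75 (−0.85 to −0.66) in males, where other neuronal nuclei had −0.69. *speck* had −0.58 (−1.56 to 0.32) and −0.75 (−1.40 to −0.12). *Fer2* was counted in females only, with 0.57 (−0.25 to 1.37). None of the 16 amine receptors, 22 fast transmitter receptors, 22 excitability genes and 14 genes of synaptic release counted in each sex was beyond 2-fold. Among peptide receptors, *TkR99D*, a tachykinin receptor gene, was at 112 CPM in female NaAsO2 and 52.0 CPM in female control members (1.10, 0.48 to 1.73), and 0.08 in other neuronal nuclei. *InR*, the insulin receptor gene, was at 739 CPM in male NaAsO2 and 337 CPM in male control members (1.13, 0.93 to 1.34), and other neuronal nuclei had 1.10.

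Stress genes of the lists showed few differences. *MtnA*, the main metallothionein, was at 673 CPM in female NaAsO2 and 665 CPM in female control members (0.02, −0.20 to 0.23), while other neuronal nuclei had 0.73. It was at 1219 CPM in male NaAsO2 and 656 CPM in male control members (0.89, 0.74 to 1.05), while other neuronal nuclei had 0.15, and the male value was 0.51 for nuclei with at most 10000 UMIs and −0.18 for members with at least 0.4% of UMIs in the rule genes. *MtnA* was the only metallothionein of the list counted. *Hsp83*, the Hsp90 chaperone, was at 270 and 380 CPM in female NaAsO2 and control members (−0.49, −0.82 to −0.18) and at 109 and 494 CPM in male NaAsO2 and control members (−2.17, −2.52 to −1.84). Other neuronal nuclei had −0.59 and −2.25. It was the only one of 5 heat shock genes counted that was beyond 2-fold in males, and none was in females. *MsrA*, methionine sulfoxide reductase, was at 82.1 CPM in male NaAsO2 and 25.7 CPM in male control members (1.68, 0.96 to 2.44, and 1.21 in other neuronal nuclei), the only one of 14 genes of oxidative stress beyond 2-fold in males. None of the 10 counted in females was. In nuclei with at most 10000 UMIs it was at 0.94. *Sod1*, superoxide dismutase, had −0.57 (−0.98 to −0.17) in males and −0.41 (−1.01 to 0.16) in females. None of the 6 orthologs of Parkinson's disease genes counted in females and 7 in males was beyond 2-fold, and *Pink1* had −0.07 and 0.04. Among 7 activity-regulated genes, *Atf3*, a stress-inducible transcription factor, was at 36.4 CPM in female NaAsO2 and 95.9 CPM in female control members (−1.40, −2.30 to −0.59), and other neuronal nuclei had −0.09.

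Some differences between the female libraries rested on single nuclei. Of 16 neuropeptide genes counted, 3 were higher (*Hug*, *Trissin* and *Gpb5*) and 4 lower (*AstA*, *Tk*, *Crz* and *Pdf*) in female NaAsO2. Of 14 counted in males, *AstC* was higher (1.13) and *AstA*, *Ms* (−1.41) and *Pdf* were lower. The other listed genes beyond 2-fold were the POU factor *vvl* in females (−1.19) and, in males, the Kenyon cell marker *crb* (1.40), the glial marker *nrv2* (−1.10), the photoreceptor marker *Arr2* (−1.36) and the fat body markers *TotA* and *TotC* (−1.47 each). *Hug*, the hugin peptide gene, was at 1086 CPM in female NaAsO2 and 20.8 CPM in female control members (5.71), but 446 of its 495 UMIs in all members lay in 1 nucleus. Among members with at least 0.4% of UMIs in the rule genes *Hug* had −1.68. *Trissin* (5.17) and *Ppn* (4.39) had 82.5% and 73.8% of their female NaAsO2 UMIs in 1 nucleus. All 6 fat body markers counted were lower in female NaAsO2, with a median of −2.79. That median was −0.10 among nuclei with at most 10000 UMIs, where *Nplp2*, *apolpp* and *Obp99c* were above 0. Summed fat body markers were at 505 CPM in female NaAsO2, 1848 CPM in female control, 834 CPM in male NaAsO2 and 765 CPM in male control members. *Yp1* was at 26.7 CPM in female NaAsO2 and 260 CPM in female control members, and 75.1% of its female control UMIs lay in 1 nucleus. The plasmatocyte markers *Col4a1* and *Ppn* were higher, and summed plasmatocyte markers were at 522 CPM in female NaAsO2, 138 CPM in female control, 102 CPM in male NaAsO2 and 128 CPM in male control members. Summed glial markers other than *repo*, which the rule set to 0, were at 430, 679, 750 and 750 CPM in the same order. The part of these cells in the other differences was not tested.

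Male NaAsO2 members had lower levels of genes of the endoplasmic reticulum. A list of 25 such genes was set up after these values were seen and is given without a test. Of 20 counted in males, 11 were lower beyond 2-fold and none higher, beside 2.93% lower over all genes. As unscaled mean UMIs per nucleus 9 of the 11 were above 0, since every male ratio then moves up by the same amount. The median ratio of the 20 was −1.13. It was −0.95 among nuclei with at most 10000 UMIs and −0.76 in other neuronal nuclei. In females none of 20 was beyond 2-fold and the median was −0.03. *Calr*, the calcium-binding chaperone calreticulin, was at 65.9 CPM in male NaAsO2 and 181 CPM in male control members (−1.46, −1.93 to −0.997), and at 177 and 185 CPM in female NaAsO2 and control members (−0.06, −0.48 to 0.35). *Grp170*, a cochaperone of BiP, was at 42.3 and 111 CPM in male NaAsO2 and control members (−1.39, −2.00 to −0.81) and at 192 and 122 CPM in female NaAsO2 and control members (0.65, 0.21 to 1.08). *Manf*, a secreted factor needed by dopaminergic neurons, was at 22.4 and 54.8 CPM in male NaAsO2 and control members (−1.29, −2.16 to −0.48) and at 77.7 and 56.6 CPM in female NaAsO2 and control members (0.46, −0.23 to 1.13). *Hsc70-3*, the fly BiP, had −0.91 (−1.32 to −0.50) in males. Other neuronal nuclei of males had −1.24, −1.29, −1.34 and −0.74 for these genes. *Sec61beta*, a subunit of the translocon, had 0.29 (−0.34 to 0.92) in males, and *Sec61gamma* had 0.01.

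Of 2848 genes counted in both sexes, 598 had positive and 798 negative ratios in both, 788 a positive ratio in females and a negative one in males, and 664 the reverse. Among genes higher in both sexes, *regucalcin* (1.43 in females, 1.33 in males) and *CG15082* (1.42 and 1.09) led, followed by *CG9394*, *Cbs*, which makes cystathionine, and *Sec16* of endoplasmic reticulum exit sites at 0.59 to 0.87. *Cbs* in males was at −0.07 among nuclei with at most 10000 UMIs and 0.03 among members with at least 0.4% of UMIs in the rule genes. Both leading values in males had the other sign among nuclei with at most 10000 UMIs, at −0.64 and −1.47, and 88.7% of the *CG15082* UMIs of male NaAsO2 members lay in 1 nucleus. Among genes lower in both, the peptide gene *AstA* was at 12.2 and 71.6 CPM in female NaAsO2 and control members (−2.56) and at 21.1 and 74.7 CPM in male NaAsO2 and control members (−1.82). Of its UMIs, 71.0% in female control and 84.4% in male control brains lay in 1 nucleus, and without predicted doublets the male ratio was 1.13. *Pdf* was at 31.6 and 72.8 CPM in female NaAsO2 and control members (−1.20) and at 18.7 and 61.8 CPM in male NaAsO2 and control members (−1.73), and other neuronal nuclei had −1.48 and −3.47. *sog*, an antagonist of bone morphogenetic proteins (−1.95 and −1.17), *Tret1-1*, a trehalose transporter gene (−1.21 and −1.06), and the ubiquitin-conjugating enzyme gene *Ubc4* (−1.08 and −1.01) followed. In females *sog* was at −0.20 among nuclei with at most 10000 UMIs and 0.54 with the 0.4% minimum, where *Tret1-1* was at 0.48 in males.

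Genes with opposite signs included *JhI-21*, with 1.05 (0.54 to 1.56) in females and −1.49 (−2.35 to −0.70) in males. Other neuronal nuclei had 0.18 and −0.41. The signs were the same among members with at least 0.4% of UMIs in the rule genes (0.63 and −0.79) and among nuclei with at most 10000 UMIs (0.58 and −1.67). With the 0.4% minimum the male interval (−1.84 to 0.15) included 0. *mir-9381*, a microRNA hairpin gene, was at 177 and 65.8 CPM in female NaAsO2 and control members (1.43) and at 19.9 and 66.5 CPM in male NaAsO2 and control members (−1.74), and other neuronal nuclei had 1.28 and −2.10. *MtnF*, a metallothionein gene outside the list, had 1.07 and −0.99, *CG31064* 0.90 and −0.85, and *ND-13B*, a subunit of mitochondrial complex I, 0.88 and −0.84. The largest change in the other direction was that of *lncRNA:CR40469*, at 168 and 641 CPM in female NaAsO2 and control members (−1.94, −2.32 to −1.57) and at 2910 and 573 CPM in male NaAsO2 and control members (2.34, 2.20 to 2.49). Other neuronal nuclei had −1.14 and 1.38, and among nuclei with at most 10000 UMIs the members had −1.83 and 1.85. *RpL22*, *CG2233*, *CG10365* and the mitochondrial ribosomal RNA *srRNA* had −1.11 to −1.40 in females and 1.14 to 1.59 in males. Among nuclei with at most 10000 UMIs, *CG2233* was at 0.78 and *srRNA* at −0.49 (−1.21 to 0.19) in females, and *RpL22* at 0.65 (−0.01 to 1.30) in males.

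**Figure D5:**
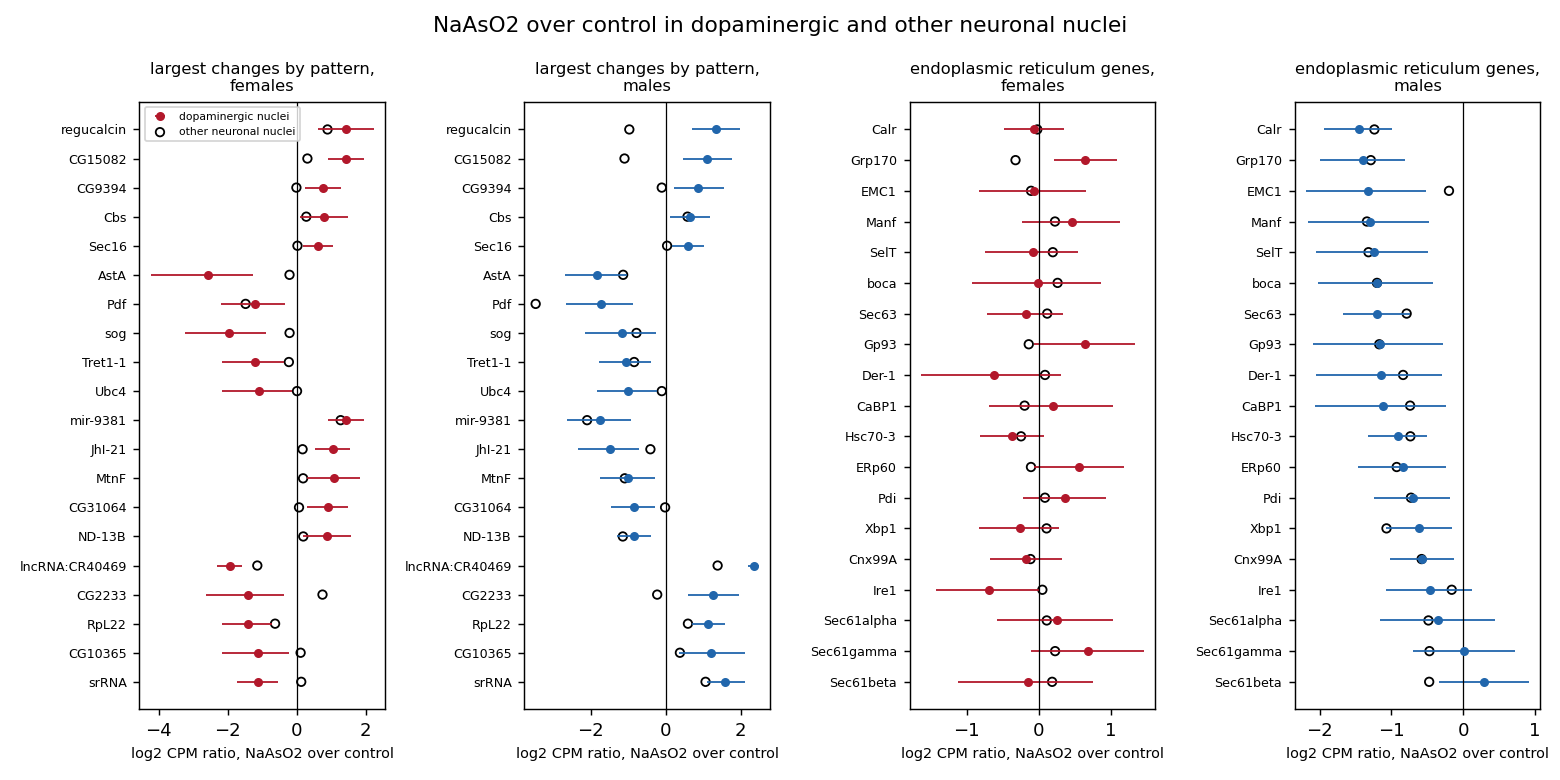
Log2 CPM ratio of NaAsO2 over control (horizontal axis) in females and males for the 20 genes with the largest changes by pattern (2 left panels) and for the 19 endoplasmic reticulum genes counted in both sexes (2 right panels, list chosen after seeing the data); filled points are dopaminergic nuclei with exact 95% intervals for counting error, open circles other neuronal nuclei, with 1 library per group. Most endoplasmic reticulum genes lie below 0 in males, and they lie on both sides of 0 in females. As unscaled mean UMIs per nucleus all male ratios move up equally, which puts 9 of the 11 beyond 2-fold above 0.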

How the data were processed

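Nuclei were isolated from frozen brains and profiled with 10x Genomics chemistry. The authors deposited UMI counts per gene and nucleus for each library, made with Cell Ranger on release 6 of the genome. Their processing notes name Cell Ranger 3.1 and Seurat 3, and the file headers name a later Cell Ranger version, so that the counting of intronic reads is not settled. Of 17772 genes, 17711 were matched by identifier to RefSeq annotation of release 6. The members and gene lists were chosen with earlier results of these data known.

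UMI counts were summed per library and class (Python 3.11.15, SciPy 1.17.1). CPM is the UMIs of a gene per 1000000 UMIs of a class in a library. Classes were compared with edgeR 4.0.16 (limma 3.58.1, R 4.3.3), quasi-likelihood test, TMM, filterByExpr, library as block and Benjamini-Hochberg adjustment over all genes tested. Fold changes are given as log2 ± SE. Genes that defined either class were not tested, except *SerT*, *Trhn*, *Tdc2* and *Tbh* against other neuronal nuclei. Other neuronal nuclei had no *repo*, *ple* or *DAT* UMI and were not in the serotonergic and octopaminergic class. Serotonergic and octopaminergic nuclei had no *repo*, *ple* or *DAT* UMI, at least 1 UMI of *Vmat* and 2 over *SerT*, *Trhn*, *Tdc2* and *Tbh*. For NaAsO2, log2 CPM ratios have exact conditional binomial intervals at 95%, for counting error only. The genes named were those of the lists, the 10 with the largest changes in each direction per class comparison (adjusted p under 0.05, same sign in all 4 libraries, at least 100 UMIs in the higher class) and the 5 with the largest changes of each NaAsO2 pattern. The scripts were tested on simulated data. Alternatives were DESeq2 1.42.0, other count filters, rules, depths, scalings, removal of predicted doublets, and each library left out in turn. Predicted doublets were the nuclei with the highest Scrublet scores (scanpy 1.11.5). Their number was not called by Scrublet but set by library size, at 0.8% per 1000 nuclei. It was 5134, 2945, 800 and 1775 nuclei of female NaAsO2, female control, male NaAsO2 and male control.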

Additional observations from a re-analysis of the deposited data

Results flagged for a closer look

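For 7 genes the log2 CPM ratio of NaAsO2 over control in dopaminergic nuclei was beyond 2-fold in both sexes but with opposite signs. With 1 library per sex and treatment, this difference between the sexes was not tested. *lncRNA:CR40469* had −1.94 in females and 2.34 in males. *mir-9381* had 1.43 in females and −1.74 in males. *srRNA* had −1.11 in females and 1.59 in males. *JhI-21* had 1.05 in females and −1.49 in males. *RpL22* had −1.4 in females and 1.14 in males, *CG2233* −1.4 and 1.26, and *CG10365* −1.12 and 1.21. Among nuclei with at most 10000 UMIs, *CG2233* had 0.78 in females, and the intervals of *CG10365* (−0.66, −1.77 to 0.35) and *srRNA* (−0.49, −1.21 to 0.19) in females and of *RpL22* in males (0.65, −0.01 to 1.30) included 0. *CG2233* had −1.02 (−2.77 to 0.41) in males with at least 0.4% of UMIs in the rule genes. Other male intervals that included 0 there were those of *JhI-21* (−0.79, −1.84 to 0.15), *mir-9381* (−1.01, −2.4 to 0.20) and *RpL22* (0.42, −0.46 to 1.3). In females those of *CG10365* (−0.94, −2.22 to 0.21) and *srRNA* (−0.37, −1.15 to 0.38) did so. Of the *CG2233* UMIs, 68.0% in female control and 58.7% in male NaAsO2 members lay in 1 nucleus.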

How the results depend on the processing

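The share of dopaminergic nuclei was lower in NaAsO2 than in control in both sexes under all 8 settings. With at least 1766 UMIs per nucleus it was 1.06% in female NaAsO2 and 1.31% in female control brains. After thinning to 1000 UMIs it was 0.584% and 0.704% in female NaAsO2 and control and 0.32% and 1.13% in male NaAsO2 and control brains. Among members with at least 0.4% of UMIs in the rule genes it was 0.691% in female NaAsO2 and 0.855% in female control brains, 0.49% in male NaAsO2 and 1.38% in male control brains. The female intervals overlapped under these 3 settings and without predicted doublets (0.847% in NaAsO2 and 1.10% in control brains). Against other neuronal nuclei, 78 higher and 154 lower genes became 133 and 253 without a count filter, 241 and 413 with the 0.4% minimum, and 153 and 271 with at most 10000 UMIs. There were 47 higher genes at 1766 or more UMIs, 95 lower genes with DESeq2, and 249 lower genes after thinning. Leaving out 1 library gave 35 to 104 higher and 85 to 177 lower genes. Against serotonergic and octopaminergic nuclei, 21 and 47 genes became 72 and 158 without a filter, 123 and 118 with the 0.4% minimum, 71 and 85 with at most 10000 UMIs, and 13 and 23 at 1766 or more UMIs. DESeq2 called 30 lower. Leaving out 1 library gave 3 to 29 higher and 6 to 57 lower genes, and the lowest counts in all 4 ranges came without the male control library. For the genes of the lists and the largest changes, 867 values kept direction and call against other neuronal nuclei, 149 lost the call, and 4 reversed. These were *Yp1* (−0.45) and *Yp3* (−0.71) with at most 10000 UMIs, *Yp3* without female control (−0.22, in a range up to 1.45) and *Hml* after thinning (0.020). Against serotonergic and octopaminergic nuclei the counts were 324, 71 and 0. The library was the block in both class comparisons. No paired analysis was possible because NaAsO2 and control share 1 replicate number within a sex, and a fit over both sexes with sex as a block was not run.

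For NaAsO2 in females, 17 higher and 65 lower genes became 9 and 25 with the 0.4% minimum, 36 and 42 with all nuclei brought to 1 total, 1 and 8 at 200 UMIs, and 67 and 140 at 20 UMIs. The lower genes were 25 without predicted doublets and 17 with at most 10000 UMIs. The 25 of the 65 given above for at most 10000 UMIs were counted with no minimum of UMIs in the nuclei kept. In males, 25 and 96 genes became 50 and 276 with scaled nuclei, 6 and 15 at 200 UMIs, and 81 and 204 at 20 UMIs, and 11 were higher with the 0.4% minimum. Mean UMIs per nucleus without scaling gave 4 higher and 1238 lower genes in females and 2524 higher and 1 lower in males. Reversed log2 ratios in females were 0.78 for *CG2233* with at most 10000 UMIs, 0.54 for *sog* with the 0.4% minimum and −0.44 for *CG15082* with *Vmat* required, −1.68 for *Hug* with the 0.4% minimum, 0.40, 0.20 and 1.93 for *Nplp2*, *apolpp* and *Obp99c* with at most 10000 UMIs, and 0.58 for *Obp99c* with scaled nuclei. In males, *CG15082* was at −2.11 without predicted doublets, −1.45 with the 0.4% minimum, −1.47 with at most 10000 UMIs and −0.48 with scaled nuclei. *regucalcin* was at −1.69, −0.64 and −0.45 under the last 3 of these. *CG2233* was at −1.02 with the 0.4% minimum and −0.37 with scaled nuclei. *Tret1-1* was at 0.48 with the 0.4% minimum and 0.30 with mean UMIs, where *sog* was at 0.18, *Ubc4* at 0.35 and *nrv2* at 0.26. Endoplasmic reticulum genes were there at 0.20 (*Gp93*), 0.24 (*CaBP1*), 0.063 (*Manf*), 0.16 (*Sec63*), 0.21 (*Der-1*), 0.16 (*boca*), 0.033 (*EMC1*), 0.16 (*Spase25*) and 0.11 (*SelT*). With mean UMIs all ratios of a sex move by the same amount, so these changes of sign follow from that shift. *AstA* was at 1.13 without predicted doublets. The 0.4% minimum and the limit of 10000 UMIs were chosen after seeing the data. Apart from the shift with mean UMIs, the cause of these changes was not tested.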
